A study of Mus musculus with 2 samples.

Results

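The C/EBP transcription factors examined here were Cebpa, Cebpb, Cebpd and Cebpg, 4 of the 32285 genes listed in 2 single-cell RNA libraries of mouse retina. They were chosen by name, with values of these libraries already known, so that their levels and changes are given as a description and no test was run on them. Both libraries came from mice of 6 to 9 weeks whose Tgfbr2 alleles were both floxed, on a Balb-C/CD1 background, which the study treats as functional wild type and the labels call WT. Controls were kept in the dark for 18 h. Mice of the light damage group were likewise kept in the dark for 18 h, were then exposed to white light of 5000 lux for 30 min and recovered for 6 h. Each condition is 1 library from the pooled retinae of 3 to 5 mice, and the study used both sexes without saying which pool held which, so the spread between mice could not be measured, and pool, library and condition cannot be told apart. The comparison of the libraries addresses how retinal cells respond early after a damaging exposure to light.

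C/EBP proteins are basic leucine zipper (bZIP) factors that bind DNA as homodimers or heterodimers, with each other and with other bZIP factors. C/EBPα (Cebpa) is best known from myeloid and fat cell differentiation, whereas C/EBPβ (Cebpb) and C/EBPδ (Cebpd) are induced by inflammatory cytokines, in the acute phase response and by glucocorticoids. C/EBPγ (Cebpg) lacks a classical activation domain, is widely expressed and pairs with ATF4 and other bZIP factors. In the damaged retina, photoreceptors and Müller glia are known to signal through LIF, gp130 and STAT3, a pathway that induces Cebpd in other tissues.

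The upstream sequences of the members are shown because Cebpd, Cebpb and Cebpa differed between the libraries and Cebpg differed little in rods. RefSeq promoter sequence (GRCm38.p6) was at hand for 3 of the 4 genes, Cebpa, Cebpb and Cebpg, and the 250 bases before the annotated start are printed 5′ to 3′ on the strand of the gene. Capitals mark a TATA box (TATAAA), the half-site of a cAMP response element (TGACG, or CGTCA on the other strand) and a CCAAT box (ATTGG on the other strand).
Cebpa, chr7:35119043-35119292, plus strand: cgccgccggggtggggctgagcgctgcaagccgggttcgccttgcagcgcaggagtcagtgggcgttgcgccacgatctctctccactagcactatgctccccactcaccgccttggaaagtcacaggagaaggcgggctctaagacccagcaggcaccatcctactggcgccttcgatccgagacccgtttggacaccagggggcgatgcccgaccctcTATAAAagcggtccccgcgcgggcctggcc
Cebpb, chr2:167688665-167688914, plus strand: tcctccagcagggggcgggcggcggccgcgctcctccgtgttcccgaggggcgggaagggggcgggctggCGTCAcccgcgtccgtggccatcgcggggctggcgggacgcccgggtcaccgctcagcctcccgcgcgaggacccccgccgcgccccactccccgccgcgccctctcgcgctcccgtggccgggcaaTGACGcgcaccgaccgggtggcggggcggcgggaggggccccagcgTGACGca
Cebpg, chr7:35056567-35056816, minus strand: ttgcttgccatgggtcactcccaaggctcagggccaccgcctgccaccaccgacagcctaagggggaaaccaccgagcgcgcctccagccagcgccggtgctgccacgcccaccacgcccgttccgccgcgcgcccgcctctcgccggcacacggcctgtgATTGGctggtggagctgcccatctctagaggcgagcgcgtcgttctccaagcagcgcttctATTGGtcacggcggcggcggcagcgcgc
The Cebpa window held 1 TATA box, which 12.4% of the 32851 promoters in the table hold in the same window. The Cebpb window held 3 half-sites of the cAMP response element, of which 17.8% of promoters hold at least 1, and the Cebpg window held 2 CCAAT boxes, which 33.8% hold. Searched on both strands, the C/EBP motif TTGCNNAA (in 9.56% of promoters), the STAT motif TTCNNNGAA (7.02%), the AP-1 motif TGANTCA (6.75%) and the full cAMP response element TGACGTCA (1.55%) did not occur in any of the 3 windows, which says nothing of sites elsewhere. In the GENCODE vM21 annotation on GRCm38, Cebpb (ENSMUSG00000056501, chromosome 2, 167688915 to 167690418), Cebpa (ENSMUSG00000034957, chromosome 7, 35119293 to 35121928) and Cebpd (ENSMUSG00000071637, chromosome 16, 15887286 to 15891031) hold no intron-only sequence, whereas Cebpg (ENSMUSG00000056216, chromosome 7, 35046422 to 35056573) holds 4531 intron-only bases.

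The control library held 30605284 unique molecular identifiers (UMIs, 1 per captured transcript) and the light damage library 54413601, with 3669 and 5593 droplets kept at medians of 2852 and 4492 UMIs. Droplets were assigned by the share of marker UMIs, and rods were divided by their unspliced share into cytoplasm-rich (under 20%), intermediate, and nucleus-rich (over 30%) rods. Control and light damage droplets numbered 2387 and 1895 cytoplasm-rich rods, 146 and 58 intermediate rods, 716 and 3095 nucleus-rich rods, 163 and 94 cone-like, 157 and 290 retinal pigment epithelium (RPE)-like, 49 and 46 Müller-like and 12 and 42 microglia-like droplets. The markers of each named class were present in both libraries, apart from 1 of 8 RPE markers that was at 0 in control RPE-like droplets. The median share of rod markers in cone-like droplets was 7.80% among control and 2.5% among light damage droplets, and that in microglia-like droplets 4.88% and 0.152%, so control droplets of these classes carried much rod RNA. Xist, read from the inactive X chromosome of females, had 3345 UMIs in control nucleus-rich rods and at most 1 UMI in every light damage class, so sex cannot be told apart from the condition. The libraries shared 7 of the kept barcodes. Levels are given in CPM, the spliced plus ambiguous UMIs of a gene in all droplets of a class, scaled to a total of 1e6. Their 95% intervals cover counting error only and leave out the spread between droplets, mice and libraries.

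Cebpd was far higher in the light damage library in rods, cone-like, RPE-like and Müller-like droplets. In cytoplasm-rich rods it had 24 control UMIs, or 3.06 CPM (1.96 to 4.56), and 812 light damage UMIs, or 124 CPM (116 to 133). The ratio was 40.6-fold (27.1 to 63.8), or 5.34 on the log2 scale, the 11th largest among 10108 genes with at least 20 UMIs. Of these genes 5.01% were higher by 2-fold or more, as was Cebpd alone among the members. Of the 24 control UMIs, 12 lay in a single droplet, and without the fullest droplet of either library the log2 ratio was 6.27 (5.46 to 7.23). Nucleus-rich rods held 3 control UMIs (1.97 CPM, 0.405 to 5.74) and 1083 light damage UMIs (101 CPM, 94.7 to 107). Their ratio of 51.2-fold (17.5 to 249) ranked 4 among 12046 genes, of which 8.48% were higher by 2-fold or more, Cebpb and Cebpd among the members. In intermediate rods 1 control UMI stood against 130 (204 CPM, 170 to 242), of which a single droplet held 52, and 10.5% of genes were that much higher, Cebpd being the member among them. When droplets were named by Leiden clusters instead, nucleus-rich rods held 22 control UMIs and 1146 light damage UMIs and the log2 ratio was 2.95 (2.34 to 3.63) in place of 5.68 (4.13 to 7.96), the Müller-like cluster then holding 0 control and 26 light damage droplets. Cebpb then had 7 and 58 UMIs in nucleus-rich rods, a log2 ratio of 0.29 (−0.84 to 1.67) in place of 1.67 (−0.26 to 4.76), and was no longer past 2-fold. By markers, the 3 rod classes had light damage levels between 101 and 204 CPM and control levels of at most 3.06 CPM, with no overlap of the intervals of counting error.

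Outside rods, the light damage level of Cebpd was highest in Müller-like droplets. These held 23 control UMIs (175 CPM, 111 to 263) and 958 light damage UMIs (2515 CPM, 2358 to 2679), a ratio of 14.3-fold (9.5 to 22.7), and 21.4% of genes were higher by 2-fold or more, Cebpb, Cebpd and Cebpg of the members. Of the Müller-like droplets, 3 of 49 control and 12 of 46 light damage droplets lay under double the marker limit of the class. Müller-like droplets were mixed: 31 of the 46 light damage and 27 of the 49 control droplets held UMIs of endothelial or pericyte markers, and the summed level of Müller markers was 17919 CPM among control and 7156 CPM among light damage droplets. In the droplets without such UMIs, 22 and 15 in number, Cebpd had 146 CPM (47.4 to 341, 5 UMIs) and 629 CPM (403 to 936, 24 UMIs), or 2.11 (0.69 to 3.85) as log2 ratio, against 3.84 (3.25 to 4.51) over all Müller-like droplets. What part the other cell types have in the difference was not tested. RPE-like droplets had 21.7 CPM (12.2 to 35.8, 15 UMIs) in the control and 567 CPM (537 to 599, 1329 UMIs) in the light damage library. The ratio was 26.1-fold (15.8 to 46.8), where 11.8% of genes were higher by 2-fold or more and all 4 members were among them. Cone-like droplets held no control UMI of Cebpd and 64 light damage UMIs (44.9 CPM, 34.5 to 57.3), which was at least 8.76-fold higher against a floor of 3 UMIs, and 16.5% of genes were 2-fold or more higher, Cebpb and Cebpd of the members. Of the 64 UMIs, 52 lay in 5 of the 94 droplets, 25 of them in 1 droplet. Müller markers summed to 463 CPM in these 5, against 52.9 CPM in cone-like droplets without Cebpd. Endothelial markers summed to 147 against 8.82 CPM. The part of other cell types and of free RNA in this class was not tested. Microglia-like droplets had 2 and 39 UMIs, 61.1 CPM (7.40 to 221) and 104 CPM (73.8 to 142), with a ratio of 1.70 whose interval (0.440 to 14.5) includes 1. Of the 39 UMIs, 34 lay in 5 of the 42 light damage droplets. Monocyte and neutrophil markers summed to 11947 CPM in these 5, against 131 CPM in the 33 droplets without Cebpd. The part of such cells in the Cebpd level of this class was not tested. In the light damage library the order of the levels from the highest was Müller-like, RPE-like, intermediate rods, cytoplasm-rich rods, microglia-like, nucleus-rich rods and cone-like, and the interval of microglia-like droplets overlapped those of both larger rod classes.

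**Figure D1:**
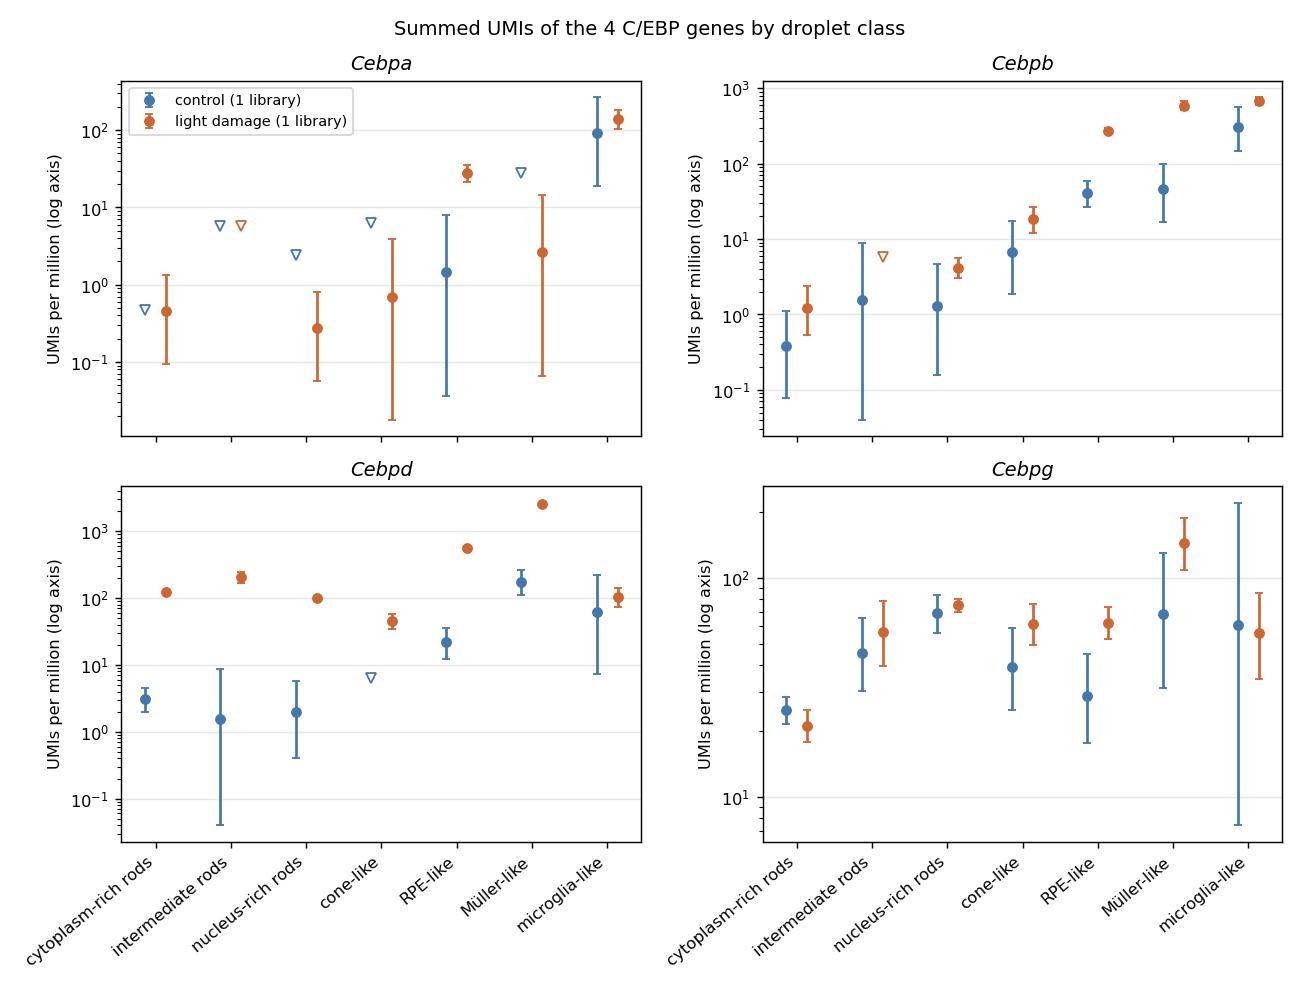
Levels of the 4 members in CPM (log axis) by droplet class, blue for the control and orange for the light damage library, with 95% Poisson intervals of counting error; open triangles mark the upper limit where no UMI was found. Cebpd lies at 101 to 204 CPM in light damage rods against at most 3.06 CPM in control rods, while Cebpg in rods lies close between libraries.

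Cebpd RNA was also free in the suspension. In barcodes under 50 UMIs, which hold free RNA, Cebpd had 11.1 CPM (14 UMIs) in the control and 310 CPM (792 UMIs) after light damage, a level above that of rods in the same library. Free RNA was estimated, from the level of RPE markers in rods, at 0.748% of the UMIs of light damage cytoplasm-rich and 0.984% of nucleus-rich rods, which corresponds to 15.1 of 812 and 32.9 of 1083 Cebpd UMIs. With it subtracted, the log2 ratios were 5.37 and 5.87.

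The Cebpd UMIs of light damage rods lay in few droplets. Of 3095 nucleus-rich rods 277 held a UMI, or 8.95% (7.97 to 10.0), whereas 837 would hold one if all shared 1 level at their depths. In cytoplasm-rich rods 224 of 1895, or 11.8% (10.4 to 13.4), held a UMI against 619 at 1 level. In control rods these shares were 0.419% (0.0865 to 1.22) and 0.419% (0.201 to 0.769). Thinned to 1000 UMIs each, 4.92% of light damage nucleus-rich and 6.23% of cytoplasm-rich rods held Cebpd. Droplets with 3 or more UMIs, a limit chosen after the counts were seen, were 103 nucleus-rich rods with 869 of 1083 UMIs and 96 cytoplasm-rich rods with 647 of 812 UMIs. The droplet with most held 89 and 41 UMIs respectively. The ratio of observed to expected droplets was 0.331 and 0.362, and none of 1842 and 1176 genes with UMI sums within 1.5 times that of Cebpd had a lower one, their medians being 0.850 and 0.852. Cebpg, with 806 UMIs in light damage nucleus-rich rods, lay in 551 droplets against 661 expected, a ratio of 0.834 that 32.6% of 2233 genes of like sum fell below. In RPE-like droplets 187 of 290 held a Cebpd UMI against 262 expected, and 116 droplets held 1229 of 1329 UMIs.

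**Figure D2:**
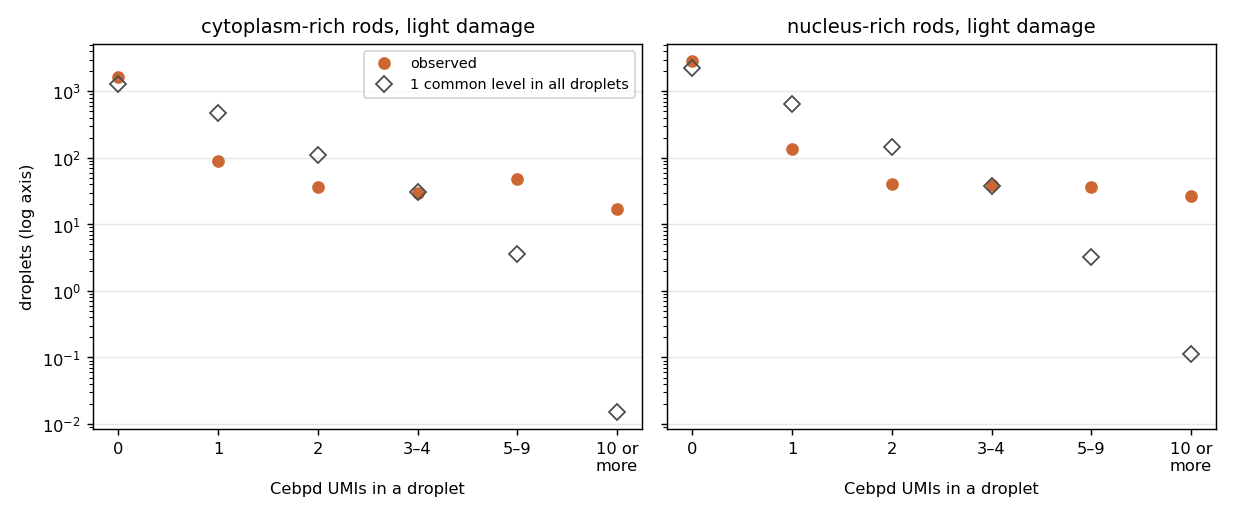
Number of light damage rods (log axis) by their Cebpd UMIs, observed (filled circles) and computed for 1 common level over every droplet of the class (open diamonds). Droplets with 10 or more UMIs numbered 17 and 27 where 0.0153 and 0.113 were computed, and droplets with 1 UMI numbered 91 and 134 against 475 and 650.

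Rods with 3 or more Cebpd UMIs had rod marker shares near those of rods without one, 4.48% against 4.08% in nucleus-rich and 7.62% against 8.23% in cytoplasm-rich rods. Müller markers summed to 162 CPM (129 to 202) against 99.8 CPM (93.5 to 106) in nucleus-rich rods and to 29.4 CPM (15.2 to 51.3) against 39.6 CPM (34.6 to 45.2) in cytoplasm-rich rods. RPE markers summed to 100 CPM against 127 CPM and to 61.2 CPM against 98.9 CPM. In Müller-like and RPE-like light damage droplets these lists summed to 7156 and 74825 CPM. The droplets with Cebpd were deeper, with medians of 8654 against 6024 UMIs and of 3612 against 3040 UMIs. The part of Müller markers in the values that follow was not tested. That of depth was examined only for the count of genes past 2-fold in both classes, taken again against rods without Cebpd deeper than the median of their class. Its part in the single ratios was not tested.

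Among 6735 genes with at least 5 UMIs expected in the Cebpd-rich rods of both classes, 164 were 2-fold or more higher in the cytoplasm-rich and 76 in the nucleus-rich Cebpd-rich rods, and 29 in both, which are 17.7% and 38.2% of these lists. The lists of 164 and 76 genes were 2.44% and 1.13% of these 6735 genes. Over the 6791 and 8949 genes tested in each class, 2.5% and 1.62% were 2-fold or more higher and 4.42% and 4.4% that much lower. The 29 genes were found by this comparison and carry no test, and 17 of them remained in both lists with Cebpd-rich rods set at 2 or more UMIs, and 17 at 5 or more. They included Fgf2, a survival factor of photoreceptors, with 372 against 92.0 CPM in cytoplasm-rich rods (log2 ratio 2.02, 1.75 to 2.28) and 195 against 77.4 CPM in nucleus-rich rods (1.33, 1.01 to 1.64). Its antisense neighbours Fgf2os and Nudt6 were among them too, with log2 ratios of 3.29 and 2.65 for Fgf2os. Edn2, the endothelin that stressed photoreceptors release, had 93.1 against 24 CPM (1.96, 1.40 to 2.49) and 205 against 42.0 CPM (2.28, 1.96 to 2.60). Gadd45b, a stress sensor, had log2 ratios of 2.18 (1.83 to 2.53) and 2.28 (2.03 to 2.54), Myo10, an unconventional myosin, 2.39 and 1.63, and Cd47, which restrains phagocytosis, 1.70 and 1.54. Socs3, the feedback inhibitor of gp130 and JAK signalling, had 98.3 against 17.1 CPM in nucleus-rich rods (2.52, 2.03 to 2.99) and 41.6 against 4.08 CPM in cytoplasm-rich rods (3.35, 2.35 to 4.32), the latter from 17 and 23 UMIs and below the minimum.

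Among other stress genes, Atf3, Stat3, Jun and Fos were not 2-fold higher in both classes. Atf3, a bZIP factor, came nearest, with log2 ratios of 1.84 (1.43 to 2.24) in cytoplasm-rich and 0.95 (0.58 to 1.31) in nucleus-rich rods, both intervals above 0. Stat3 had log2 ratios of 0.04 (−0.43 to 0.48) and −0.10 (−0.33 to 0.11) between Cebpd-rich rods and rods without Cebpd. Jun, an AP-1 subunit, had −1.47 (−2.54 to −0.57) in cytoplasm-rich and −0.32 (−0.46 to −0.18) in nucleus-rich rods, with 10 against 381 and 413 against 9788 UMIs, so it was lower where Cebpd was high in both. Fos had 1.06 (0.56 to 1.52) and −0.12 (−0.38 to 0.13), so only the former interval lay apart from 0. In RPE-like droplets, where 9.85% of 9991 genes were 2-fold or more higher in Cebpd-rich droplets, Gadd45b was again higher (2.42, 1.82 to 3.08), Myo10 (0.07) and Cd47 (0.10) were near 0, and Edn2 had 1 UMI and Fgf2 8 UMIs in the Cebpd-rich droplets, while Il6, the cytokine, had 203 UMIs against 1 and Ccl2, a monocyte chemokine, 81 against 1. Ptx3, a long pentraxin, had 588 against 85.1 CPM (2.79, 2.35 to 3.27) and Cebpb 340 against 107 CPM (1.67, 1.26 to 2.10) there. These RPE-like droplets differed much in depth, with medians of 10529 and 3862 UMIs.

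**Figure D3:**
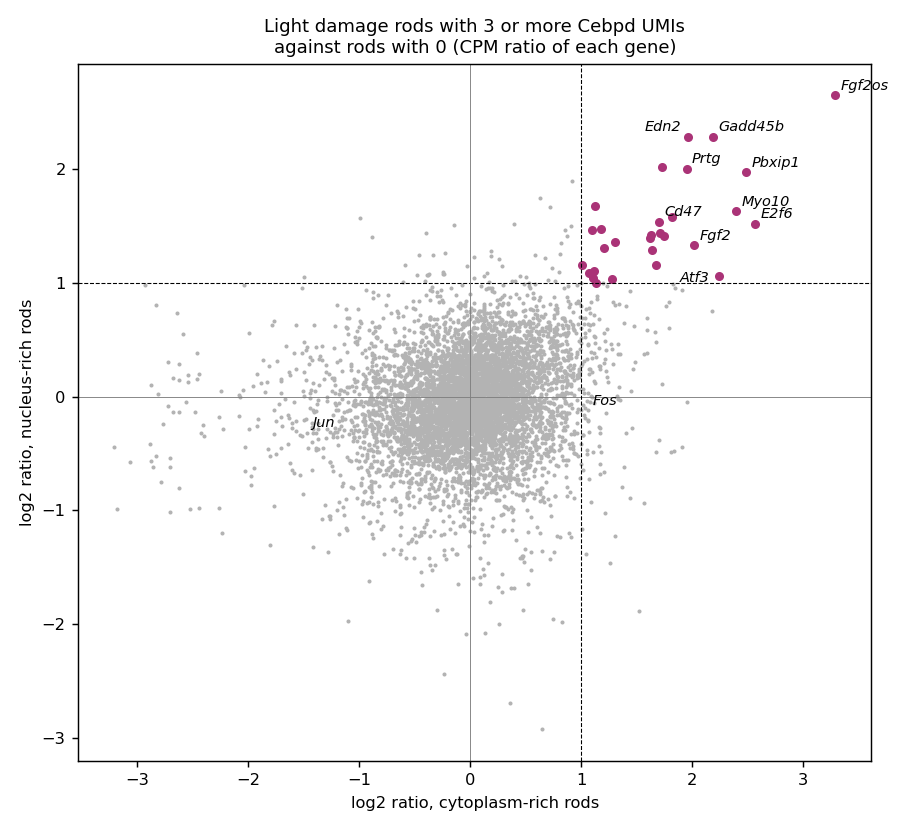
Each point is a gene, placed by its log2 ratio of CPM between light damage rods with 3 or more Cebpd UMIs and rods with 0, in cytoplasm-rich (x axis) and nucleus-rich rods (y axis); dashed lines mark 2-fold, and 7 genes with 0 UMIs in the Cebpd-rich rods of a class are not drawn. The 29 genes past 2-fold in both classes are purple, with Fgf2os farthest out, and Jun has −1.47 on the x axis.

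Spidr, a gene on the other strand whose annotation overlaps Cebpd, was also higher in the Cebpd-rich rods. In nucleus-rich rods its unspliced level was 522 CPM of unspliced UMIs in Cebpd-rich rods (291 UMIs) and 87.6 CPM in those without Cebpd (927 UMIs), and its spliced plus ambiguous level was 40.1 against 11.7 CPM. In cytoplasm-rich rods the latter was 44.1 against 7.81 CPM (18 and 44 UMIs). Reads were counted by strand, and what part of the Spidr UMIs comes from the Cebpd locus was not tested.

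Cebpb was higher after light damage in Müller-like and RPE-like droplets, as Cebpd was, and low in rods of both libraries. Müller-like droplets had 6 control UMIs (45.8 CPM, 16.8 to 99.6) and 225 light damage UMIs (591 CPM, 516 to 673), or 12.9-fold (5.84 to 35.6). Of the light damage UMIs 220 lay in the deeper droplets that also held endothelial or pericyte UMIs (642 CPM). The other 15 droplets held 5 UMIs (131 CPM). RPE-like droplets had 40.5 CPM (26.9 to 58.6, 28 UMIs) and 274 CPM (253 to 296, 642 UMIs), or 6.76-fold (4.63 to 10.3). In microglia-like droplets, its highest class, though its light damage interval overlapped that of Müller-like droplets, Cebpb had 306 CPM (147 to 562, 10 UMIs) and 676 CPM (595 to 764, 254 UMIs), or 2.21-fold (1.18 to 4.67), where 35.9% of genes were higher by 2-fold or more, Cebpb alone of the members. One microglia-like droplet held 81 of the 254 UMIs, and monocyte and neutrophil markers had 4 UMIs in the 12 control and 833 UMIs in the 42 light damage droplets, with 6 of 7 and 1 of 7 markers at 0. Their part in the Cebpb level was not tested. Cone-like droplets had 4 and 26 UMIs, a ratio of 2.67 whose interval (0.926 to 10.5) includes 1. Rods had 3 and 8 UMIs in cytoplasm-rich droplets (0.383 and 1.23 CPM), of which 3.46 of the 8 were expected from free RNA. Nucleus-rich rods had 2 and 45 UMIs (1.31 and 4.18 CPM), a ratio of 3.19 (0.833 to 27.1), and 7.51 of the 45 were expected from free RNA. Across the rod classes Cebpb was thus at most 4.18 CPM.

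Cebpa was found in microglia-like and RPE-like droplets and hardly elsewhere. Microglia-like droplets had 3 control UMIs (91.7 CPM, 18.9 to 268) and 52 light damage UMIs (138 CPM, 103 to 181), with a ratio of 1.51 (0.489 to 7.56). RPE-like droplets had 1 control UMI (1.45 CPM, 0.0367 to 8.07) and 65 light damage UMIs (27.7 CPM, 21.4 to 35.4), a ratio of 19.2 (3.32 to 768). The RPE-like UMIs lay in 37 of 290 light damage droplets, or 12.8% (9.14 to 17.2), against 1 of 157, while 3 of 1895 light damage cytoplasm-rich rods, or 0.158% (0.0327 to 0.462), held one, at median depths of 6421 and 3112 UMIs. Microglia markers in RPE-like droplets summed to 149 CPM among control and 107 CPM among light damage droplets, and their part in the Cebpa level was not tested. In rods, cone-like and Müller-like droplets Cebpa had at most 3 UMIs per class and library, and no ratio is given.

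Cebpg was present in every class of both libraries and, in rods, differed least among the members with a ratio. Cytoplasm-rich rods had 195 control UMIs (24.9 CPM, 21.5 to 28.6) and 138 light damage UMIs (21.1 CPM, 17.8 to 25). The log2 ratio was −0.24 (−0.56 to 0.09). Nucleus-rich rods had 105 (68.8 CPM, 56.3 to 83.3) and 806 UMIs (74.9 CPM, 69.8 to 80.2), or 0.12 (−0.17 to 0.43), so that in both rod classes the libraries overlapped within counting error and a change above 2-fold lay outside the interval. RPE-like droplets had 29.0 CPM (17.7 to 44.7, 20 UMIs) and 62.3 CPM (52.6 to 73.3, 146 UMIs), or 1.11 (0.43 to 1.86). Müller-like droplets had 68.6 CPM (9 UMIs) and 144 CPM (55 UMIs), or 1.07 (0.04 to 2.28), but −0.16 (−2.58 to 2.27) with 4 UMIs in either library in those without endothelial or pericyte UMIs. Cone-like droplets had 39.3 CPM and 61.7 CPM, or 0.65 (−0.02 to 1.38), and microglia-like droplets 2 and 21 UMIs.

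As the member with introns, Cebpg alone had unspliced UMIs. In nucleus-rich rods they made up 27.1% (20.0 to 35.1, 39 of 144 UMIs) of control and 14.1% (11.9 to 16.5, 132 of 938 UMIs) of light damage Cebpg UMIs, with intervals that do not overlap. Among unspliced UMIs the level was 18.1 and 11.0 CPM, a log2 ratio of −0.73 (−1.25 to −0.17) beside a median of −0.08 over 13868 genes. Cebpa, Cebpb and Cebpd had no unspliced UMI in any class, which held for 97.7% of the 530 genes without intron-only sequence, so their unspliced RNA could not be followed.

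Within the light damage library, Cebpd was higher in cytoplasm-rich than in nucleus-rich rods and Cebpg was lower. The log2 ratio of nucleus-rich over cytoplasm-rich rods was −0.31 (−0.44 to −0.17) for Cebpd, 1.77 (0.67 to 3.07) for Cebpb and 1.82 (1.56 to 2.10) for Cebpg, beside median log2 ratios of 1.56 over 603 genes without and 0.83 over 11452 genes with intron-only sequence. Taken over all UMIs, unspliced ones included, the ratios were −1.30 for Cebpd, 0.77 for Cebpb and 0.83 for Cebpg, beside medians of 0.56 and −0.17. In the control library Cebpg had 1.47 (1.11 to 1.82), and 0.28 (−0.07 to 0.63) over all UMIs, so its direction there was not resolved on that scale. Along the unspliced share of light damage rods, in steps of 10%, Cebpd had 119, 96.9, 153, 34.3, 59.6, 38.6, 59.6 and 25.1 CPM of all UMIs from below 10% to 70 to 80%. Control rods stayed at or below 3.17 in every step. Cebpg peaked in between, at 59.3 in control and 44.5 in light damage rods of 30 to 40%, and was 9.62 and 17.3 at 70 to 80%.

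**Figure D4:**
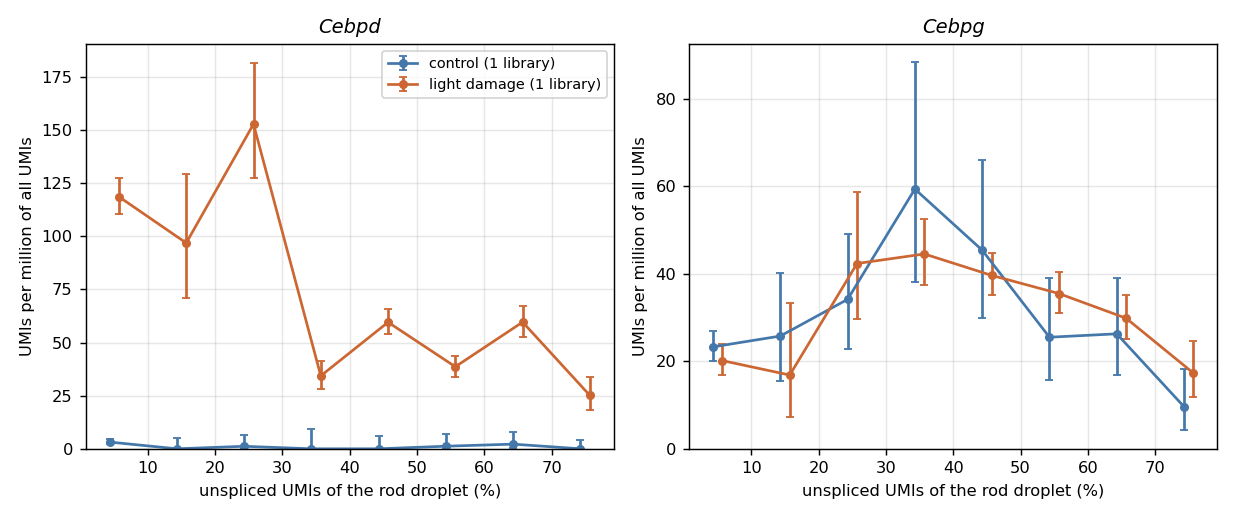
Cebpd (left) and Cebpg (right) in CPM of all UMIs over rod droplets grouped by their unspliced share in steps of 10%, blue for control and orange for light damage, with 95% Poisson intervals of counting error. Cebpd lies at 25.1 to 153 in light damage rods and at most 3.17 in control rods, and Cebpg is highest near the middle in both libraries.

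Some droplets held both Cebpd and Cebpb. In light damage nucleus-rich rods, 12 of 36 droplets with a Cebpb UMI also held Cebpd, or 33.3% (18.6 to 51.0), against 8.66% of those without Cebpb, and 4 of 16 (25%, 7.27 to 52.4) against 129 of 2688 after thinning to 1000 UMIs. In RPE-like droplets the shares were 81.8% against 41.6%, and 45.6% (32.4 to 59.3) against 26.6% (21.1 to 32.8) thinned, with intervals that overlap. In Müller-like droplets they were 28 of 28 against 10 of 18, but 9 of 13 against 21 of 32 thinned, and in microglia-like droplets 8 of 29 against 1 of 13, but 0 of 12 against 4 of 30 thinned. Socs3 showed the same in nucleus-rich rods, with 24.6% (17.8 to 32.6) against 8.20%, and 7 of 43 (16.3%, 6.81 to 30.7) against 4.74% thinned, but in RPE-like droplets the thinned shares were 25.9% and 30.8%. Droplets with and without Stat3 were close once thinned, at 5.96% and 4.52% in nucleus-rich and 6.37% and 6.21% in cytoplasm-rich rods. For Jun the thinned share was 3.24% (2.25 to 4.50) with and 5.99% without a Jun UMI in nucleus-rich rods, and 42.1% (26.3 to 59.2) with and 28.6% without one in RPE-like droplets.

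Genes around the C/EBP factors were examined as 3 lists from general knowledge. Of 19 partners and regulators (bZIP factors that pair with C/EBP proteins, and Tribbles and ubiquitin ligase proteins that degrade them), 18 were matched by name. In cytoplasm-rich rods 5 of 16 with at least 20 UMIs were 2-fold or more higher and none lower, where 5.01% of all genes were higher and 1.45% lower, and the median of their log2 ratios was 0.08 beside 0.17 over all genes. In nucleus-rich rods it was 7 of 16 and none lower, against 8.48% and 5.82% of all genes, with a median of 0.92 beside 0.01. Among the AP-1 subunits, Fos had a log2 ratio of 4.22 (3.62 to 4.88) in cytoplasm-rich and 5.56 (4.63 to 6.69) in nucleus-rich rods, Jun 1.25 (1.01 to 1.5) and 4.68 (4.32 to 5.07), and Junb 3.79 (3.48 to 4.12) and 4.09 (3.74 to 4.46). Atf3, a repressor that pairs with C/EBP proteins, had 2.08 (1.76 to 2.41) and 2.18 (1.62 to 2.80). Atf4, the factor of the integrated stress response that binds with C/EBPγ, had −0.10 (−0.19 to −0.01) and 1.08 (0.96 to 1.21). The clock-linked PAR bZIP genes Dbp (−0.25, −0.72 to 0.22) and Tef (−0.05, −0.41 to 0.31) lay near 0 in cytoplasm-rich rods, whereas in RPE-like droplets Dbp was at −1.39 (−1.67 to −1.10), and Fbxw7, a ubiquitin ligase subunit, at −1.37 (−1.82 to −0.91), the 2 list genes lower there against 6 higher of 14 (median 0.78), where 11.8% of all genes were higher and 6.94% lower. Müller-like droplets had 8 of 12 partners higher and 2 lower, against 21.4% and 16% of all genes, with a median of 1.57 with genes lacking a control UMI at their bound, and microglia-like droplets 6 of 9 higher (35.9% of all genes) with a median of −0.09 taken likewise, beside 0.39 over all genes.

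Of 17 genes of cytokine and glucocorticoid signalling, 6 of 12 were 2-fold or more higher in cytoplasm-rich rods and 8 of 12 in nucleus-rich rods, and none was lower (medians 0.83 and 1.57). Over all genes 5.01% and 8.48% were higher and 1.45% and 5.82% lower, with medians of 0.17 and 0.01. Stat3, the transcription factor of gp130 signalling, had log2 ratios of 3.24 (2.92 to 3.57) and 2.69 (2.39 to 3.00), and Il6st, which encodes gp130, 1.89 (1.67 to 2.11) and 1.93 (1.56 to 2.32). Socs3 had no UMI in control nucleus-rich rods and 239 in the light damage library, at least 11.3-fold higher. Jak1, a kinase of the same pathway, had −0.16 and −0.34, and Nr3c1, the glucocorticoid receptor, −0.11 (−0.26 to 0.04) and −0.22 (−0.42 to −0.02). The cytokine genes had their highest counts outside rods, while the rod classes had at most 17 UMIs of Lif and 3 of Il6. Lif had 332 UMIs in light damage and 0 in control Müller-like droplets, at least 38.1-fold higher, and Il6 had 221 and 0 UMIs in RPE-like droplets, at least 21.7-fold higher. Osmr, the oncostatin M receptor, had 155 and 5514 UMIs in RPE-like droplets, a log2 ratio of 3.39 (3.16 to 3.63). In RPE-like droplets 8 of 13 of these genes were higher and 1 lower (median 2.09), and in Müller-like droplets 9 of 12 were higher and none lower (median 2.15), where 11.8% and 21.4% of all genes were higher, 6.94% and 16% were lower, and the medians of all genes were 0.01 and 0.00. In microglia-like droplets it was 6 of 9 and 1 lower, against 35.9% and 16.7% of all genes, with a median of 0.70 at the bounds beside 0.39.

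Of 21 acute phase and inflammatory genes described to hold C/EBP sites, of which Il6 is also in the list above, few were detected in rods. There 3 of 6 in cytoplasm-rich and 4 of 7 in nucleus-rich rods were 2-fold or more higher and none lower, against 5.01% and 8.48% of all genes higher. These included the metallothioneins, which bind zinc and copper, with log2 ratios of 4.12 (3.73 to 4.54) and 3.93 (3.48 to 4.41) for Mt1 and 4.94 (4.03 to 6.01) and 3.38 (2.71 to 4.14) for Mt2. In RPE-like droplets 10 of 12 were higher (11.8% of all genes) and none lower, with a median log2 ratio of 2.31 when the 6 genes without a control UMI are set at their lower bound. Serpina3n, an acute phase protease inhibitor, had 0 and 1834 UMIs, at least 180-fold higher, Ptx3 0 and 1012, at least 99.5-fold higher, and Lcn2, the iron-binding lipocalin, 0 and 760, at least 74.7-fold higher. In Müller-like droplets 9 of 9 were higher (21.4% of all genes), Lcn2 with 0 and 321 UMIs (at least 36.8-fold) and Ccl2 with 0 and 146 (at least 16.8-fold). In microglia-like droplets 7 of 11 were higher and 2 lower (35.9% and 16.7% of all genes), but with the genes lacking a control UMI at their bound the median was 0.28, below the 0.39 of all genes. In cone-like droplets 8 of 15 partners, 6 of 13 signalling and 4 of 5 acute phase genes were higher and none lower (16.5% and 3.58% of all genes), and in intermediate rods 5 of 12, 4 of 9 and 2 of 3 were higher and none lower (10.5% and 2.86%).

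**Figure D5:**
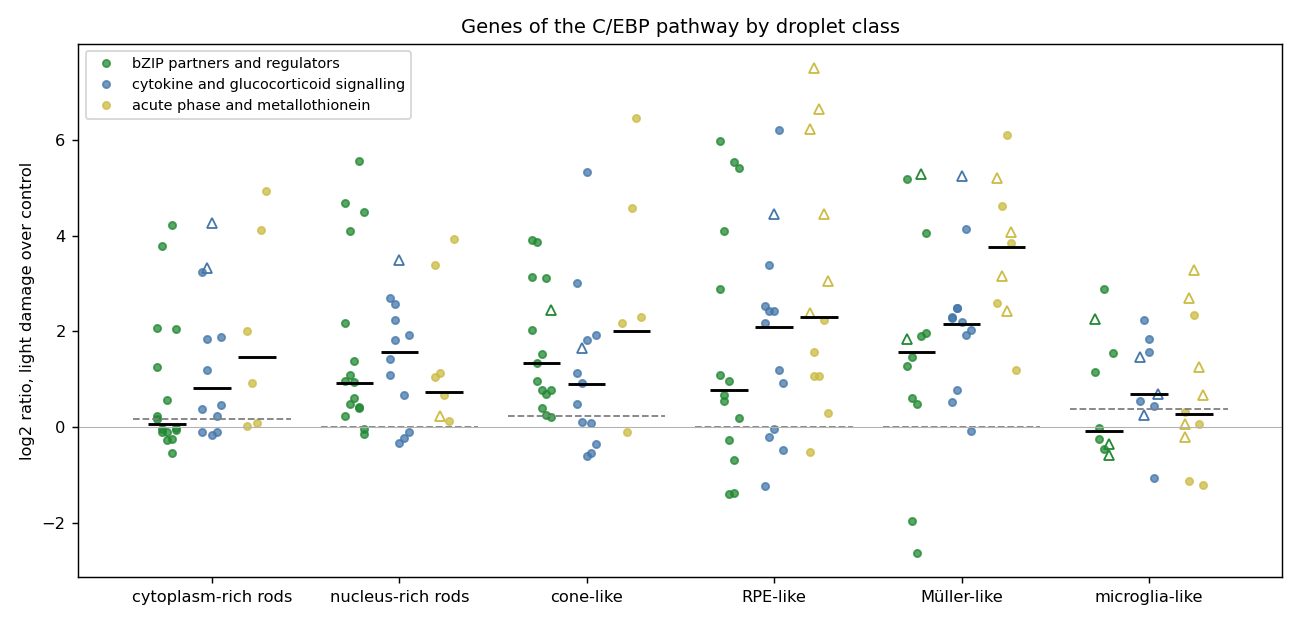
log2 ratios of light damage over control for genes of the 3 lists with at least 20 UMIs, by droplet class; circles are ratios, open triangles lower bounds for genes without a control UMI, black bars list medians with such genes at their bound, and dashed grey lines the median of all genes tested. The highest bound is that of Serpina3n in RPE-like droplets, at least 180-fold.

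Over the 14 values of 7 classes in 2 libraries, which share the libraries and their depths, the genes most like Cebpd were Il6st (Pearson's r 0.87), Relb (0.85), Spidr (0.83), Iffo2 (0.82) and Rela (0.82), with log2 of CPM plus 10 as the measure. Those most like Cebpb were Efhd2 (0.98), H2-K1, Il10rb, Zfp36 and Litaf, and those most like Cebpa were Cd68 (0.98), Unc93b1, Ctsz, Rhog and Cd14. Cebpg went most with Chka (0.92), Zbtb41, Znrf1, Tbk1 and Stau1. Among the members Cebpb and Cebpa were most alike (0.77), followed by Cebpb with Cebpd (0.62) and Cebpd with Cebpg (0.59), and Cebpa with Cebpg least (0.15).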

How the data were processed

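Retinae were dissociated, dead cells were removed, and 10x Genomics libraries were made from 1 pool of mice per condition. Reads were mapped by the authors in the sketch mode of alevin (Salmon 1.10.1, alevin-fry 0.8.1 and Cell Ranger 7.0.1 in the submitters' processing notes) to spliced and intron sequence of mm10 and deposited whole UMI counts per barcode and gene, in spliced, unspliced and ambiguous blocks, counted by strand and without a filter on droplets. Their later steps (emptyDrops, scDblFinder, decontX, scVI) are not in these counts and were not applied here. Genes were named from GENCODE vM21 (32235 of 32285). Overlapping genes on the same strand as Cebpg can take UMIs from it.

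Droplets were kept from the inflection of the ranked barcode totals upward (1464 control and 1614 light damage UMIs) where mitochondrial UMIs were under 10%. Scrublet scores took out the top droplets at a rate of 0.8% for every 1000 (114 and 276). A class needed at least 3 of its markers and 0.2% of UMIs (RPE and red blood cells 1%, rods 2%), limits set after the marker shares had been seen. Under double their limit lay 1452 of 3095 light damage and 141 of 716 control nucleus-rich rods, 12 of 46 light damage and 3 of 49 control Müller-like droplets, and at most 26 droplets of any other class and library. The summed UMIs, 32726 in control microglia-like droplets to 10766817 in light damage nucleus-rich rods, set the precision. Intervals are at 95%, exact Poisson for CPM, exact binomial for shares and exact conditional binomial for log2 ratios. With 1 library per group no test was run. Where the control had 0 UMIs, the fold is a bound taken at 3 UMIs over the class. A gene counted as changed past 2-fold with at least 20 UMIs over both libraries and 0.5 UMI added. The members, lists and markers were chosen with earlier results of these data known. Named genes are the members, list genes past 2-fold with large UMI sums, some list genes under 2-fold chosen after their values were seen (Atf4, Tef, Jak1, Nr3c1), the 5 genes most like each member (at least 100 UMIs), and genes named after their values were seen among those of Cebpd-rich rods. Ratios were checked on simulated counts with 200 changed genes. Alternatives were the UMI minimum, mitochondrial limit, doublets, unspliced UMIs, scale, free RNA, Leiden clusters (scanpy), marker minimum, rod split and leaving out the droplet with most UMIs. The marker minimum was raised for classes other than rods only. The rod minimum was not varied, so the part of rods near it was not tested. Scanpy 1.11.5, igraph 0.11.9, scipy 1.17.1 and numpy 2.4.6 ran under Python 3.11.15, tables were handled in pandas 2.3.3 and plots drawn in matplotlib 3.10.9.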

Additional observations from a re-analysis of the deposited data

Results flagged for a closer look

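Barcodes under 50 UMIs, which hold free RNA and enter none of the comparisons between droplet classes, carried 3 of the 4 members above the control level. Cebpd had 310 CPM there in the light damage library against 11.1 CPM (6.08 to 18.7) in the control, Cebpb 70.9 CPM against 3.18 CPM (0.865 to 8.13), and Cebpa 7.83 CPM against 0 UMIs, which allows up to 2.93 CPM. Cebpg had 28.6 CPM in both.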

How the results depend on the processing

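With 1 library per condition no replicate could be left out, and intervals cover counting error only. No paired analysis was possible because each condition has 1 library. Of 135 alternative values, 119 stayed within the interval of the value given (for counts, within 1.5 times) and none reversed a direction that the interval had set. Where UMIs are few the interval is wide, so that staying within it says little. Cebpb in nucleus-rich rods stayed within its interval (−0.26 to 4.76) even at 0.29. Cebpd in cytoplasm-rich rods was 6.27 on the log2 scale without the fullest droplet of either library and between 5.02 and 5.37 otherwise. In nucleus-rich rods it was 2.95 with classes from Leiden clusters, where Cebpb was 0.29 in place of 1.67. In Müller-like droplets it was 2.11 without droplets that held endothelial or pericyte UMIs, an alternative chosen after seeing the data, as were those on the spread and on the genes of Cebpd-rich rods (23 to 26 genes in both classes against 29, of which 17 to 23 were kept). Those on the genes included a comparison with only the rods without Cebpd that were deeper than the median of their class. Cebpa in rods gave no ratio.

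Counts of genes past 2-fold followed the minimum of UMIs, which sets how many genes are tested. In cytoplasm-rich rods, 506 higher and 147 lower genes became 203 and 43 at a minimum of 100 UMIs and 2756 and 1584 at 1 UMI. In nucleus-rich rods, 1022 and 701 became 567 and 221, or 1630 and 4613. In RPE-like droplets, 1043 and 615 became 369 and 137, or 2144 and 2103. Centred on the median gene, whose shift was 0.16 in cytoplasm-rich rods, the counts there were 354 and 224, and Cebpg was at −0.39 (−0.72 to −0.07). Over all UMIs, nucleus-rich rods had 1408 higher and 474 lower genes, and Cebpg was at 0.31 (0.01 to 0.62).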
